A study of Mus musculus with 13 samples.

Results

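The microRNAs (miRNAs) described here are those best known from blood cells, inflammation and hypoxia: miR-223-3p, miR-142a-3p and miR-142a-5p of myeloid and other white blood cells, miR-451a and miR-144-3p of red blood cells, miR-155-5p, miR-146a-5p and miR-21a-5p of inflamed tissue, and miR-210-3p of hypoxic cells. They were picked by name from the table of miRNA counts, which lists 1705 miRNAs. Of the 9 names, 8 have a row there, and miR-210-3p has none. The counts come from AGO CLIP, in which ultraviolet light crosslinks Argonaute (AGO) proteins to the RNA they hold and the protected fragments, called tags here, are sequenced. The tissue was cortex of wild-type C57BL6 mice aged 7 to 8 weeks. Ipsilateral libraries (5) came from the hemisphere in which the middle cerebral artery was occluded for 35 min, with 3 h of recovery before sacrifice; contralateral libraries (4) came from the opposite hemisphere after the same operation; sham libraries (4) came from mice that were anesthetized and had the arteries exposed without a filament. Each set of replicates came from its own day of surgery, per the series' design text, and a set is taken here to be the libraries with the same replicate number; how many animals went into a library is not given in the sources used here.

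AGO loaded with a miRNA binds messages mainly through the seed, bases 2 to 8 of the miRNA, and lowers their translation and stability. miR-223 is made in granulocytes and monocytes and miR-142 throughout the blood lineages, while the miR-144 and miR-451a hairpins lie side by side and are made in red cell precursors; miR-451a is unusual in being cut by AGO2 itself and not by Dicer. miR-155 and miR-146a are induced through NF-κB in activated immune cells, the first promoting and the second restraining the response, miR-21 rises in many injured tissues, and miR-210 is a direct target of the hypoxia-inducible factors. In stroke such miRNAs are read as signs of blood in the tissue, of arriving leukocytes, of reactive glia and of low oxygen.

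The mature sequences are shown because every seed-site result below rests on them; they are RefSeq sequences of build GRCm38.p6, written 5′ to 3′, with the seed in capitals.
mmu-miR-223-3p: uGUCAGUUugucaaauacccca
mmu-miR-142a-3p: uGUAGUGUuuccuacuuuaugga
mmu-miR-142a-5p: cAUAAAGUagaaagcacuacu
mmu-miR-451a: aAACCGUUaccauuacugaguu
mmu-miR-144-3p: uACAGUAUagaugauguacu
mmu-miR-155-5p: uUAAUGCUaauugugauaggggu
mmu-miR-146a-5p: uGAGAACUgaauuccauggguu
mmu-miR-21a-5p: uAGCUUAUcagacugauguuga
mmu-miR-210-3p: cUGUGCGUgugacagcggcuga
All 9 matched RefSeq and carry 9 distinct seeds. miR-146a-5p shares its whole seed with miR-146b-5p, and miR-21a-5p shares it with miR-21c. Over bases 2 to 7 alone, miR-144-3p matches miR-101a-3p, miR-223-3p matches miR-344f-5p, and miR-146a-5p also matches miR-7217-3p. Of the 9, 6 are encoded on chromosome 11. The miR-144-3p and miR-451a sequences lie on the plus strand at chr11:78073047-78073066 and chr11:78073186-78073207, in hairpins 99 bases apart. Both arms of miR-142a lie at chr11:87756867-87756887 (5p) and chr11:87756903-87756925 (3p), also on the plus strand. miR-21a-5p (chr11:86584120-86584141) and miR-146a-5p (chr11:43374435-43374456) lie on the minus strand. miR-223-3p is on chromosome X (chrX:96242884-96242905), miR-155-5p on chromosome 16 (chr16:84714143-84714165) and miR-210-3p on chromosome 7 (chr7:141221407-141221428, minus strand).

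None of the 8 miRNAs stood out from the bulk of the table. Each count was divided by the median count over all 1705 miRNAs of its library, a level called the floor here because most miRNAs of the table sat close to it. Whether counts near it are miRNAs held by AGO could not be told from the table. By the rule used, a miRNA was over the floor if the median of this ratio over the 13 libraries was 3 or more; 98 miRNAs (5.75%) met it, and 0 of the 8 did. The 8 together held 1659 of 408129 tags, 0.406%, when 8 of 1705 rows are 0.469% of the rows. At 1.5 times the median there were 2 of them, miR-155-5p and miR-142a-5p, against 407 of all miRNAs (23.9%), and at 2 times the median 0 of them against 220 of all. For scale, miR-124-3p, the leading miRNA of neurons, stood at 28.8 times the library median with 4707 tags. miR-26a-5p stood at 32.2 times with 5118 tags and the neuronal miR-9-5p at 3.22 times with 546 tags. Not all listed neuronal miRNAs stood so high: miR-137-3p was at 3 times, miR-138-5p at 2.47 and miR-128-3p at 0.538 with 96 tags. Neither miR-138-5p nor miR-128-3p was over the floor. The rule for naming the miRNAs most alike to a member applied only to members over the floor, so none is named.

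**Figure D1:**
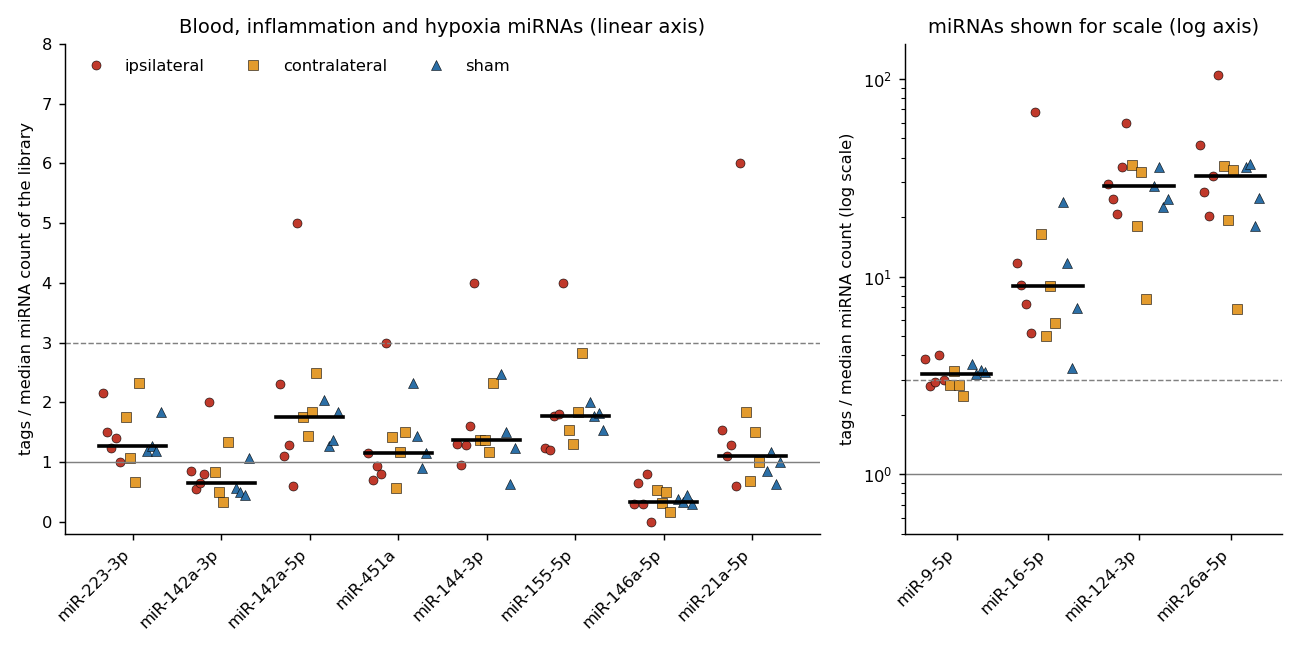
Tags of each miRNA divided by the median miRNA count of the same library, for the 8 miRNAs (left, linear axis) and for 4 abundant miRNAs (right, log axis); each point is a library, the bar is the median of 13 libraries, and grey lines mark the floor at 1 and the limit of 3 (dashed). The 8 medians lie between 0.333 and 1.78, below the dashed line, and the 5 points at or above 3 are all ipsilateral replicate 5.

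Depth was low and uneven. The miRNA tags per library ran from 3851 (ipsilateral replicate 5) to 61708 (contralateral replicate 1), and the library median was between 1 and 24 tags. Ipsilateral replicate 5 had a median of 1 tag, so a ratio there moves in steps of 1: of 104 values (8 miRNAs in 13 libraries), 5 were at or over 3, all in that library, and 36 were below the median. Tags in AGO peaks on other RNAs ran from 3780 to 71027 per library. The 3 libraries of replicate number 1 were the lowest in exonic peaks, with 30.4% to 41.2% of their peak tags there. Sham replicate 3 came next at 46.0%, nearer to them than to the rest, which lay between 59.0% and 71.5%. Over the 24 sets of replicates (8 miRNAs in 3 groups), the median coefficient of variation of a share was 34.8%, and counting error alone at these depths gives a median of 32.4%. Of the 24, 14 varied more than counting error gives, among them miR-21a-5p in ipsilateral libraries at 71.3% against 39.2%. In whole tissue, fewer cells of a type and less RNA per cell cannot be told apart.

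Among the white cell miRNAs, mmu-miR-223-3p, the granulocyte and monocyte miRNA, had 249 tags in all (rank 432 of 1705) and a median of 1.28 times the floor. Its share was 8.06, 6.92, 5.52, 6.29 and 2.60 tags per 10000 miRNA tags in ipsilateral libraries 1 to 5, 6.81, 4.60, 3.05 and 9.57 in contralateral libraries 1, 2, 4 and 5, and 4.47, 5.78, 5.22 and 8.02 in sham libraries 1, 2, 3 and 5. The 3 groups lay over each other, with means of 5.88 ± 2.06 (SD, n = 5), 6.00 ± 2.83 (n = 4) and 5.87 ± 1.53 (n = 4) per 10000 in ipsilateral, contralateral and sham libraries. miR-142a-5p had 278 tags in all (rank 338) at 1.75 times the floor, with 7.03 ± 3.94, 7.91 ± 1.81 and 6.88 ± 1.14 per 10000 in ipsilateral, contralateral and sham libraries. Its lowest and highest libraries were both ipsilateral, replicate 4 at 2.69 and replicate 5 at 12.98 per 10000, from 3 and 5 tags. Without replicate 5 the ipsilateral mean lay below the sham mean, by -1.33 per 10000. The other arm, miR-142a-3p, had 117 tags (rank 1271) and lay under the floor at 0.647 times the median. Its shares were 3.48 ± 1.03, 3.10 ± 1.73 and 2.77 ± 1.27 per 10000 in ipsilateral, contralateral and sham libraries, again with overlapping groups.

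Of the red cell miRNAs, mmu-miR-451a was the only one of the 8 to reach an unadjusted p under 0.05 in any comparison of the main fit, and it was lower in ipsilateral than in sham libraries. It had 211 tags (rank 600) at 1.15 times the floor. There were 15, 14, 16, 4 and 3 tags in ipsilateral libraries 1 to 5, 34, 9, 7 and 9 in contralateral libraries 1, 2, 4 and 5, and 49, 26, 10 and 15 in sham libraries 1, 2, 3 and 5. As shares these were 4.32, 3.23, 4.20, 3.59 and 7.79 per 10000 in ipsilateral, 5.51, 2.43, 5.34 and 6.15 in contralateral, and 8.76, 6.53, 4.02 and 5.01 in sham libraries. Sham replicate 1 was the highest library and ipsilateral replicate 5, with its 3 tags, the next; the groups overlapped. The edgeR log2 fold change of ipsilateral against sham libraries was -0.72 (SE 0.29, 95% interval -1.31 to -0.12), with an unadjusted p of 0.0191 and an adjusted p of 1.00. In that comparison 35 of 1427 tested miRNAs, 2.45%, reached an unadjusted p under 0.05, and 20, 1.4%, did so with a lower level. Without sham replicate 1 the value was -0.38 (edgeR unadjusted p = 0.248), and without the 3 libraries of replicate number 1 it was -0.47 (edgeR unadjusted p = 0.184). The difference of mean shares, 4.63 ± 1.82 per 10000 in ipsilateral (SD, n = 5) and 6.08 ± 2.07 in sham libraries (SD, n = 4), had an exact two-sided permutation p of 0.302.

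mmu-miR-144-3p, from the neighbouring hairpin, had 248 tags (rank 437) at 1.38 times the floor. Its shares were 6.53 ± 2.41 per 10000 in ipsilateral, 6.55 ± 2.03 in contralateral and 6.06 ± 2.71 in sham libraries, with a log2 fold change of -0.31 (SE 0.27) for ipsilateral against sham libraries. The mean shares differ the other way, by 0.465 per 10000, and by -0.50 without the 4 tags of ipsilateral replicate 5. The sham group alone spanned 2.81 to 9.30 per 10000, replicates 3 and 1. miR-451b, which lies at the same place as miR-451a, was at 0.900 times the floor.

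The peak table gives a separate count at the same locus. Of 18284 peaks, 32 lay over a RefSeq miRNA hairpin, and 2 of these lay over hairpins of the 9 miRNAs, at Mir451a with Mir451b and at Mir21a. The Mir451a peak (chr11:78073157-78073236) covers the mature miR-451a sequence and had 36 tags, rank 9 of the 32; the median hairpin peak had 22. It had 3, 1, 1, 0 and 1 tags in ipsilateral libraries 1 to 5, 5, 0, 1 and 2 in contralateral libraries 1, 2, 4 and 5, and 8, 6, 3 and 5 in sham libraries 1, 2, 3 and 5. Summed over libraries this was 0.411 tags per 10000 peak tags in ipsilateral (exact Poisson 95% interval 0.151 to 0.894), 0.722 in contralateral (0.312 to 1.42) and 1.59 in sham libraries (0.997 to 2.41), intervals that cover counting error only. Of the 5 ipsilateral libraries, 4 lay below the lowest sham library, and replicate 5 with its single tag lay above all 4 sham libraries. Of the 4 contralateral libraries, 2 lay below the lowest sham library. Both counts include a library with 0 tags that its depth does not place below sham. For ipsilateral replicate 4, with 7105 peak tags, the 95% limit was 4.22 per 10000, and for contralateral replicate 2 it was 1.19. Sham libraries ran from 1.13 to 2.63. How often other hairpin peaks order the groups this way was not counted. The peak holds few tags and was not tested, and its libraries are those of the miRNA table, so it is not an independent sample. It also lies over Mir451b and the strand of its tags is not given, so they cannot be assigned to miR-451a alone.

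**Figure D2:**
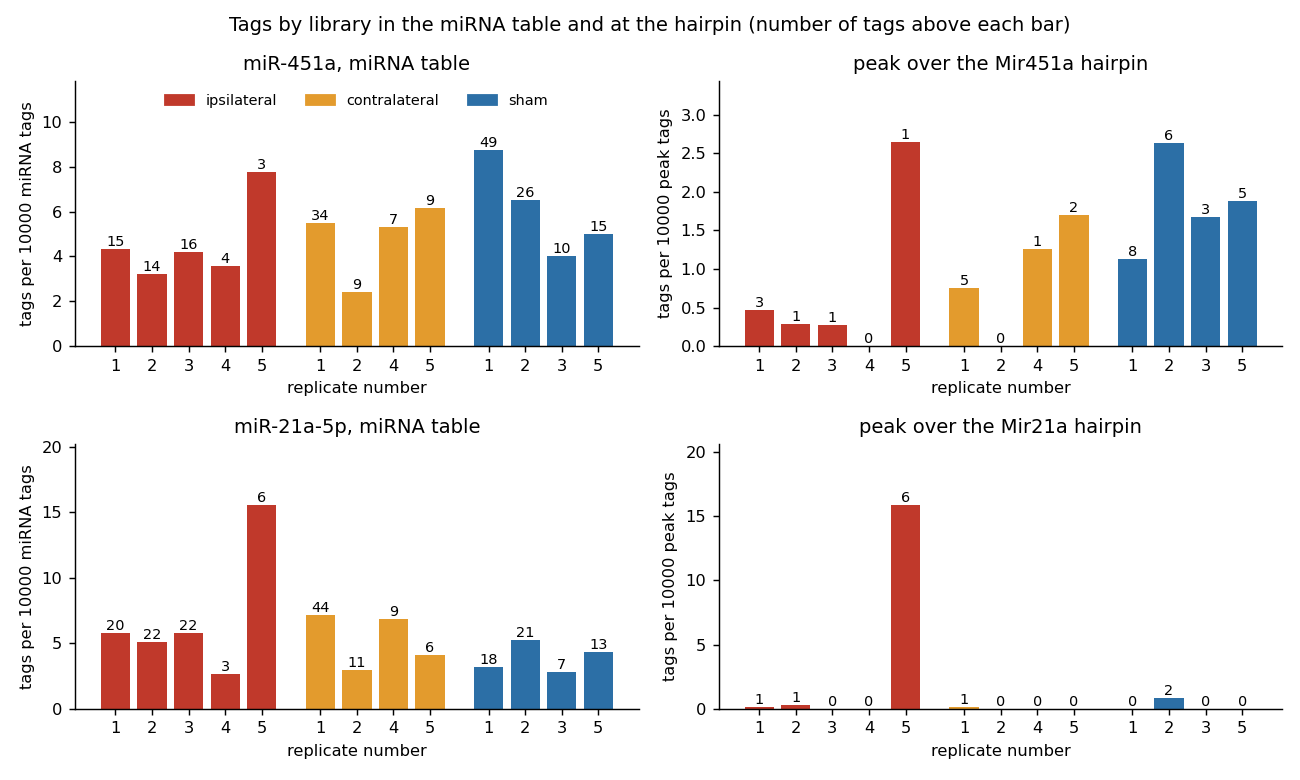
Tags by library for miR-451a and miR-21a-5p in the miRNA table (left, per 10000 miRNA tags) and in the peak over each hairpin (right, per 10000 peak tags); the number above each bar is the count of tags, and x axes give replicate numbers. The Mir451a peak holds 6, 8 and 22 tags in ipsilateral, contralateral and sham libraries, and 6 of the 11 tags at Mir21a are in ipsilateral replicate 5.

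Markers of red blood cells were near 0 among the peaks. Of 7 marker genes, among them Hba-a1, Hba-a2, Hbb-bs, Hbb-bt, Alas2 and Slc4a1, 1 had exonic tags, the beta globin gene Hbb-bs with 23. Its level per 10000 exonic tags was 0 to 2.15 in ipsilateral, 0 to 3.32 in contralateral and 0 to 2.87 in sham libraries. It had 4, 10 and 9 tags in these groups, and replicate 1 held 2, 9 and 7 of them. The part of red blood cells in the miR-451a values was not tested.

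Of the inflammation miRNAs, mmu-miR-155-5p, which favours inflammatory responses, had the most tags, 283 (rank 325), and was above the library median in all 13 libraries, at a median of 1.78 times. Its shares were 4.60, 5.54, 7.88, 8.08 and 10.4 per 10000 in ipsilateral libraries 1 to 5, 6.00, 5.68, 8.39 and 11.6 in contralateral libraries 1, 2, 4 and 5, and 7.51, 8.04, 8.03 and 6.68 in sham libraries 1, 2, 3 and 5. The sham values fell inside the range of the other groups. mmu-miR-146a-5p, which restrains NF-κB signalling, was the lowest of the 8, with 71 tags (rank 1590), 0.333 times the floor and no library above its median. It had 4, 13, 5, 4 and 0 tags in ipsilateral libraries 1 to 5, 13, 5, 3 and 1 in contralateral libraries 1, 2, 4 and 5, and 8, 6, 5 and 4 in sham libraries 1, 2, 3 and 5. It did not pass the filter on low counts and was not tested by edgeR in the main fit.

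mmu-miR-21a-5p, a miRNA of injured and reactive tissue, had 202 tags (rank 655) at 1.10 times the floor. Its shares were 5.75, 5.08, 5.78, 2.69 and 15.6 per 10000 in ipsilateral libraries 1 to 5, 7.13, 2.97, 6.86 and 4.10 in contralateral libraries 1, 2, 4 and 5, and 3.22, 5.28, 2.81 and 4.34 in sham libraries 1, 2, 3 and 5. The ipsilateral mean of 6.98 ± 4.97 (SD, n = 5) rests on the 6 tags of replicate 5; without that library it was 4.83 ± 1.46 (SD, n = 4), against 3.91 ± 1.12 in sham libraries (SD, n = 4). The edgeR log2 fold change was 0.49 (SE 0.31, adjusted p = 1.00) for ipsilateral against sham libraries, 0.0060 for ipsilateral against contralateral and 0.49 (adjusted p = 1.00) for contralateral against sham libraries. The Mir21a peak (chr11:86584090-86584169) had 8 tags in ipsilateral, 1 in contralateral and 2 in sham libraries. Of the 8, 6 were again in ipsilateral replicate 5, which holds 3780 peak tags in all.

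For hypoxia, miR-210-3p itself has no row in the table. Its other arm, miR-210-5p, had 56 tags (rank 1672) at 0.300 times the floor. No peak lay over the Mir210 hairpin, and the lowest total of any miRNA listed was 50 tags, so a level for miR-210-3p cannot be given.

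**Figure D3:**
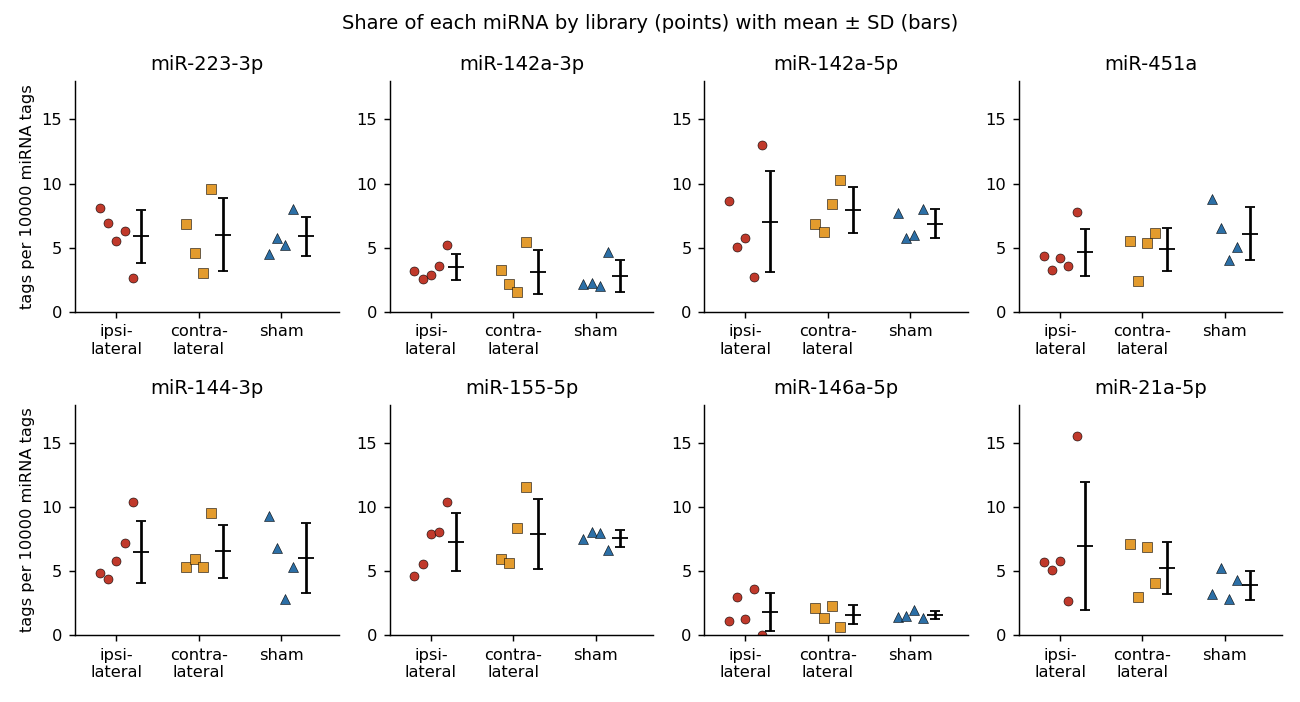
Tags per 10000 miRNA tags for each of the 8 miRNAs, with 1 point per library (5 ipsilateral, 4 contralateral and 4 sham) and mean ± SD beside them. The groups overlap in every panel; the highest point for miR-21a-5p, 15.6, is ipsilateral replicate 5.

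No change of these miRNAs passed the test in any comparison. Of the 8, 7 passed the count filter, and edgeR's quasi-likelihood test with Benjamini-Hochberg adjustment over all 1427 tested miRNAs called 0 of the 7 in ipsilateral against sham, ipsilateral against contralateral and contralateral against sham libraries. Over all miRNAs it called 0% in each of the 3, with 35 (2.45%), 52 (3.64%) and 43 (3.01%) at an unadjusted p under 0.05; DESeq2 also called 0, with 13, 29 and 20. For ipsilateral against sham libraries the log2 fold changes were 0.19 (SE 0.26) for miR-223-3p, 0.14 (SE 0.36) for miR-142a-3p, -0.16 (SE 0.26) for miR-142a-5p and -0.26 (SE 0.23) for miR-155-5p, beside those given above. The median over the 7 was -0.16, with 4 below 0, and over all tested miRNAs -0.0036, with 50.7% below 0. For ipsilateral against contralateral libraries the 7 values lay between -0.26 and 0.086, and for contralateral against sham libraries between -0.46 and 0.49. The 95% intervals reached as far as 0.403-fold (miR-451a) and 2.16-fold (miR-21a-5p) in ipsilateral against sham libraries, so the fitted counts leave room for changes up to those sizes. This bounds the counts only, since whether counts near the floor are miRNAs held by AGO could not be told. miR-146a-5p was not fitted, so it has no interval. The exact permutation tests of mean shares, 24 in all, gave two-sided p from 0.206 to 1.00, and in none did the groups separate. How often the groups of other miRNAs separate was not counted, so this is not a result about the 8 miRNAs. Libraries were exchanged without regard to replicate number. The smallest p this allows is 0.0159 with 5 against 4 libraries and 0.0286 with 4 against 4. Exchange within replicate numbers would allow fewer arrangements and a larger smallest p. The comparisons share libraries and are not independent of each other. Summed over the 8 miRNAs, shares were 43.6 ± 12.04 per 10000 in ipsilateral (SD, n = 5), 43.2 ± 10.7 in contralateral and 40.7 ± 5.30 in sham libraries (SD, n = 4 each). Ipsilateral replicate 5 was at 64.9, from 25 tags, and the other 4 ipsilateral libraries lay between 35.8 and 40.6, inside the sham range of 32.9 to 44.5.

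**Figure D4:**
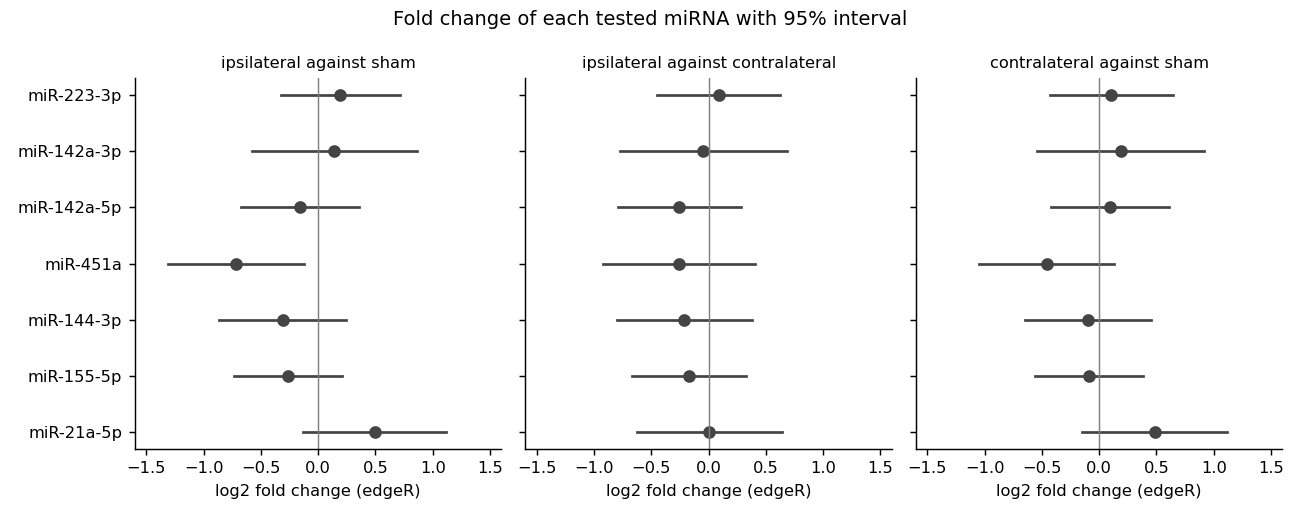
edgeR log2 fold change (point) with its 95% interval (line) for the 7 tested miRNAs in the 3 comparisons; positive values are higher in the group named first. The interval for miR-451a in ipsilateral against sham libraries, -1.31 to -0.12, is the only one that leaves out 0, and its adjusted p is 1.00.

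The other arm of each hairpin gives a further reading of the same loci. A miRNA loaded into AGO usually outnumbers the arm that is discarded: miR-124-3p had 56.7 times the tags of miR-124-5p. For miR-223 the discarded arm was slightly ahead, with 268 tags for 5p and 249 for 3p, and for miR-144 likewise, with 293 for 5p and 248 for 3p. For miR-146a the order was turned round, with 279 tags for 3p and 71 for 5p, a ratio of 3.93. The usual arm led for miR-21a, with 202 tags for 5p and 52 for 3p, and for miR-155, with 283 for 5p and 143 for 3p. For miR-142a, whose arms are both used, there were 278 for 5p and 117 for 3p. Over the 565 hairpins with neither arm over the floor the median ratio of the higher to the lower arm was 1.53, and over the 57 with an arm over it 3.51. The related miR-146b-5p was at 0.778 times the floor, miR-21b at 1.94 and miR-21c at 0.462.

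Other miRNAs of blood, immune and vessel cells were mostly at the same level. Of 12 such companions, 8 have a row, and miR-16-5p, which many cell types make, was the only one over the floor, at 9 times the median with 1957 tags. miR-150-5p of lymphocytes was at 0.550 times the median, the endothelial miR-126a-3p at 0.400, the smooth muscle miRNAs miR-143-3p and miR-145a-5p at 1.19 and 1.69, and miR-342-3p at 1.13. Of the 12, 7 were tested by edgeR and 0 were called in any comparison; miR-150-5p alone reached an unadjusted p under 0.05 in 1 of them, at 0.89 on the log2 scale in ipsilateral against contralateral libraries (SE 0.40, edgeR adjusted p = 1.00).

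The seeds could also be followed through the messages, by counting matches in AGO peaks of 3'UTRs. A site was a match to miRNA positions 2 to 8, or to positions 2 to 7 followed by A, on the transcribed strand, in 7065 3'UTR peaks with sequence; the motifs are spelled as DNA. For frequency, the 6537 of these that span 80 bases were set beside 65169 tiles of 80 bases from the rest of the same 3'UTRs. miR-144-3p sites (ATACTGT or TACTGTA) were in 2.37% of peaks and 1.24% of tiles, a ratio of 1.91, rank 10 of 87 seed families; the other 78 families are those of miRNAs over the floor that have a RefSeq sequence, with a median ratio of 1.18 and a range of 0.351 to 3.26. Of the 98 miRNAs over the floor, 18 had no such sequence, miR-124-3p among them, so the ranks leave them out. The form TACTGTA serves miR-144-3p and miR-101a-3p alike, and miR-101a-3p was over the floor at 3.80 times the median with 682 tags. TACTGTA had a ratio of 2.06, and ATACTGT, which fits miR-144-3p alone of the pair, 1.69. Sites of miR-142a-5p (ACTTTAT or CTTTATA) had a ratio of 1.46, from 2.05% of peaks and 1.40% of tiles. The ratio was 1.28 for miR-223-3p (AACTGAC or ACTGACA; 1.16% of peaks, 0.911% of tiles), 1.34 for miR-142a-3p (ACACTAC or CACTACA; 0.857% and 0.641%) and 1.32 for miR-155-5p (AGCATTA or GCATTAA; 0.964% and 0.732%). For miR-21a-5p (ATAAGCT or TAAGCTA; 0.704% and 0.646%) it was 1.09. miR-146a-5p sites (AGTTCTC or GTTCTCA) were rarer in peaks than in tiles, 0.704% against 1.25%, a ratio of 0.563 and rank 85 of 87. Sites of miR-451a (AACGGTT or ACGGTTA) and miR-210-3p (ACGCACA or CGCACAA) were in 12 and 20 peaks only, with ratios of 1.36 and 1.37. These ratios describe letters in the peaks, with no test, and a match is not proof of a site in use. Peaks and tiles were not matched for base composition. The highest ratio, 3.26, was for GAAAAAA or AAAAAAA (miR-7116-3p), and the lowest, 0.351, for CTCGGGG or TCGGGGA (miR-1895). The part of base composition in the ratios and ranks was not tested, so a rank is not a result about the miRNA. A peak can hold both forms of a motif, which overlap in the full match.

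**Figure D5:**
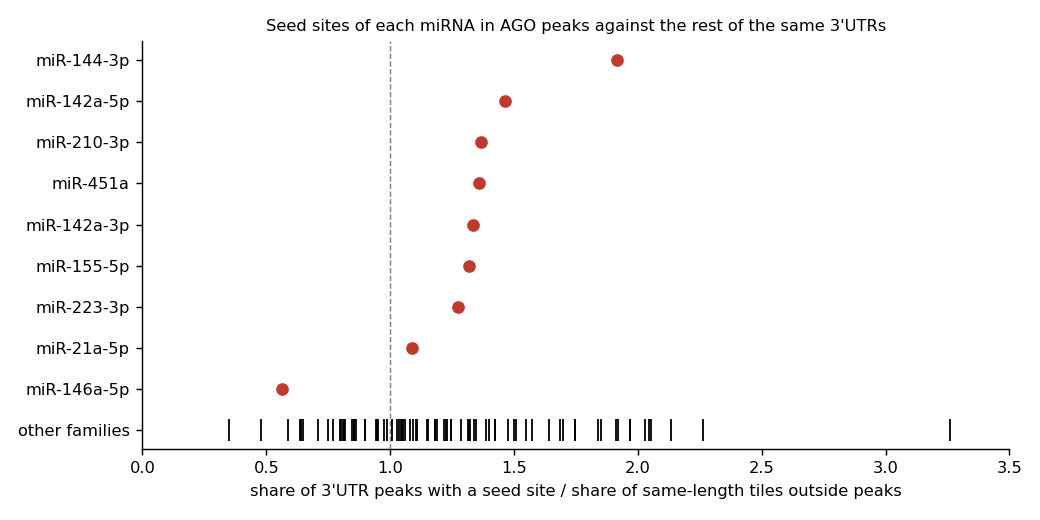
Share of 80-base 3'UTR peaks with a seed site divided by the share of 80-base tiles outside peaks in the same 3'UTRs, for the seeds of the 9 miRNAs (points) and for 78 other seed families (ticks in the bottom row); the dashed line marks equal shares. miR-144-3p is at 1.91 and miR-146a-5p at 0.563, with the rest between 1.09 and 1.46.

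No seed family of the 9 passed the test for a difference in tags. Summed over 3'UTR peaks, sites of miR-144-3p held 2.31% ± 0.270 of 3'UTR tags in ipsilateral (SD, n = 5), 2.57% ± 0.234 in contralateral and 2.31% ± 0.250 in sham libraries (SD, n = 4 each). Sites of miR-223-3p held 1.28% ± 0.284 in ipsilateral, 1.15% ± 0.100 in contralateral and 1.20% ± 0.123 in sham libraries. Sites of miR-155-5p held 0.706% ± 0.177, 0.773% ± 0.173 and 0.687% ± 0.148, and those of miR-21a-5p 0.633% ± 0.0861, 0.655% ± 0.115 and 0.601% ± 0.0441, in the same order of groups. Sites of miR-146a-5p, a seed shared with miR-146b-5p, held 0.770% ± 0.239 in ipsilateral, 0.592% ± 0.0373 in contralateral and 0.773% ± 0.131 in sham libraries. Sites of miR-142a-5p held 2.23% ± 0.420, 2.29% ± 0.228 and 2.10% ± 0.160, and those of miR-142a-3p 0.798% ± 0.122, 0.724% ± 0.0854 and 0.772% ± 0.131, again in that order. Sites of miR-451a held 0.117% ± 0.0467 in ipsilateral, 0.195% ± 0.0653 in contralateral and 0.148% ± 0.0452 in sham libraries. Those of miR-210-3p held 0.221% ± 0.0917 in ipsilateral, 0.277% ± 0.118 in contralateral and 0.217% ± 0.0304 in sham libraries. edgeR called 0 of the 9 families in each comparison, against 1.16% of 86 tested families in ipsilateral against sham libraries and 0% in each of the other 2. At an unadjusted p under 0.05 there were 0 of the 9 in each, and 8 (9.3%), 9 (10.5%) and 0 (0%) of the 86; DESeq2 called 0 of the 86 in each, with 9, 7 and 3 at an unadjusted p under 0.05. Their log2 fold changes lay between -0.099 and 0.15 for ipsilateral against sham, between -0.34 and 0.29 for ipsilateral against contralateral and between -0.35 and 0.44 for contralateral against sham libraries. The lowest adjusted p of the 9 was 0.687, for miR-146a-5p in ipsilateral against contralateral libraries. With peaks of mixed class included, a setting chosen after seeing the data, miR-451a alone of the 9 had an unadjusted p under 0.05 in contralateral against sham libraries. The lowest edgeR adjusted p of the 9 was 0.953 there. Other settings gave lower edgeR unadjusted p for other families. In ipsilateral against contralateral libraries the lowest were 0.0067 (miR-223-3p), 0.010 (miR-146a-5p) and 0.030 (miR-210-3p). For miR-144-3p it was 0.028 in contralateral against sham libraries. The share of all 86 families at that level under these settings is not given here.

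Some site peaks lie in genes known as targets or have the most tags for their seed; a choice is shown with 8 bases before and 6 after the match, in transcript orientation (mm10), with the match in capitals.
Rhob: tttaaataAACTGACAgatgac
Gria2: ttaaaagcAACTGACAcccagt
Igf1r: gaacccttAACTGACAtgggcc
Slc1a2: ctgggtttAACGGTTAgcgggg
Tab2: aggtagaaAGCATTAAtgaaat
Syt1: gcacaaacAGTTCTCAttctta
Dlg2: caaagcctATAAGCTgaaaca
Gnb1: gactgtttCGCACAAacacag
The first 3 carry the miR-223-3p match of positions 2 to 8 followed by A. Rhob, a small GTPase gene and a known miR-223 target, has its peak at chr12:8497727-8497806 (3'UTR, minus strand) with 39 tags in ipsilateral, 27 in contralateral and 33 in sham libraries, the largest miR-223-3p site peak. Gria2, the GluA2 subunit of AMPA receptors, has one at chr3:80687040-80687119 (3'UTR, minus strand) with 7, 6 and 6 tags, and Igf1r, the IGF-1 receptor, one at chr7:68226593-68226672 (3'UTR, plus strand) with 6, 8 and 3 tags, in the same order. The Slc1a2 window holds the miR-451a match; this gene of the astrocyte glutamate transporter has a peak at chr2:102782968-102783047 (plus strand, deposited as 3'UTR and intron, and so outside the sums above) with 75, 63 and 48 tags in ipsilateral, contralateral and sham libraries. Set against exonic tags, a total that leaves out peaks of mixed class such as this one, these sums are 10.2, 11.3 and 7.43 per 10000.

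Tab2, an adaptor of TAK1 in NF-κB signalling and a known miR-155 target, has its match in a peak at chr10:7906688-7906767 (3'UTR, minus strand) with 5, 9 and 9 tags in ipsilateral, contralateral and sham libraries. The largest miR-155-5p site peak was in Ppp1cb, a catalytic subunit of protein phosphatase 1, at chr5:32492291-32492370 (3'UTR, plus strand), with 23, 16 and 25 tags. The miR-146a-5p match in Syt1, the calcium sensor of transmitter release, lies at chr10:108498883-108498962 (3'UTR, minus strand) with 22, 17 and 22 tags. The miR-21a-5p match in Dlg2, a postsynaptic scaffold gene, lies at chr7:92446054-92446133 (3'UTR, plus strand) with 19, 17 and 18 tags. Per 10000 exonic tags, the Dlg2 sums are 2.59, 3.04 and 2.79. The largest miR-210-3p site peak was in Gnb1, a G protein beta subunit, at chr4:155558086-155558165 (3'UTR, plus strand), with 35 tags in ipsilateral, 5 in contralateral and 7 in sham libraries. Of the 35, 25 were in ipsilateral replicate 2 and 8 in replicate 3, and ipsilateral libraries 1, 4 and 5 had 1, 0 and 1. The next miR-210-3p site peaks were higher in sham than in ipsilateral libraries, with 4 tags in ipsilateral, 17 in contralateral and 17 in sham libraries for Camk2a, a kinase gene of synapses, and 4, 14 and 8 for Elfn2. Single peaks were not tested.

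Known target genes were taken as sums over exonic peaks. Of 46 listed targets of the 9 miRNAs, 9 passed the count filter, and edgeR called 0 of them in any comparison, against 0.234% of 427 tested genes in ipsilateral against sham libraries and 0% in each of the other 2. Of these 9, 0 had an unadjusted p under 0.05 in ipsilateral against sham libraries, 1 in ipsilateral against contralateral and 0 in contralateral against sham libraries; over all genes there were 38 (8.9%), 53 (12.4%) and 6 (1.41%), and DESeq2 called 5, 6 and 0 genes with 34, 48 and 5 at that level. The median log2 fold change of the 9 was 0.033, -0.22 and -0.074 in the 3 comparisons, against 0.022, -0.013 and 0.029 over all tested genes. Of 8 miR-223 targets, 6 were tested, with log2 fold changes for ipsilateral against sham libraries between -0.30 (Igf1r) and 0.19 (Rhob). Gria2 had 24.4 ± 7.61 tags per 10000 exonic tags in ipsilateral (SD, n = 5), 34.3 ± 14.8 in contralateral (SD, n = 4) and 22.8 ± 1.79 in sham libraries (SD, n = 4).

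The target with the unadjusted p under 0.05 was Ywhaz, the 14-3-3 zeta gene and a known miR-451a target. It had 9.72, 34.9, 29.3, 15.1 and 11.1 tags per 10000 exonic tags in ipsilateral libraries 1 to 5, 6.65, 12.8, 12.6 and 5.96 in contralateral libraries 1, 2, 4 and 5, and 13.1, 23.3, 17.0 and 8.41 in sham libraries 1, 2, 3 and 5. Ipsilateral replicates 2 and 3 were the highest and the groups overlapped. The edgeR log2 fold change was 1.22 (SE 0.43, unadjusted p = 0.0102, adjusted p = 0.272) for ipsilateral against contralateral and 0.50 (SE 0.40, adjusted p = 0.740) for ipsilateral against sham libraries. No 3'UTR peak of Ywhaz held a miR-451a seed site. App, the amyloid precursor gene and a known target of miR-144, had 2 peaks with TACTGTA sites; its summed tags were at 0.34 on the log2 scale in ipsilateral against sham libraries (SE 0.33, edgeR adjusted p = 0.763). Of the listed targets of miR-146a-5p (Irak1, Traf6, Numb, Irak2 and Notch1) 0 of 5 had exonic tags, and of those of miR-142a-5p (Nfe2l2 and Socs1) 0 of 2.

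Messages of the response pathways were sparse in the peaks. Of 20 hypoxia genes 9 had exonic tags and 2 were tested, the glucose transporter gene Slc2a3 (log2 fold change 0.068, SE 0.41) and the stress-induced mTOR inhibitor gene Ddit4 (0.26, SE 0.38) in ipsilateral against sham libraries, both not called. Vegfa had 22 tags and Aldoa 63. Ldha, the gene of a lactate dehydrogenase subunit, had 0 tags in each of the 5 ipsilateral libraries, 4, 0, 0 and 0 in contralateral libraries 1, 2, 4 and 5, and 2, 4, 2 and 5 in sham libraries 1, 2, 3 and 5; it was too low to be tested and is named after its values were seen. Ipsilateral replicates 4 and 5 held only 4649 and 2701 exonic tags in all. How often other genes this low have 0 tags in a whole group was not counted, so this is not a result about Ldha. Of 22 inflammatory genes 2 had exonic tags, Nfkbia with 24 and Zfp36 with 6, and 20, among them Il1b, Tnf, Ccl2 and Ptgs2, had none. Per 10000 exonic tags, Nfkbia was at 2.05, 0.851, 0, 0 and 0 in ipsilateral libraries 1 to 5, 3.69, 0, 3.61 and 2.38 in contralateral libraries 1, 2, 4 and 5, and 1.64, 0, 0 and 0 in sham libraries 1, 2, 3 and 5, from 6, 14 and 4 tags; it was too low to be tested.

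Of the markers of cells that could bring these miRNAs, 0 of 7 neutrophil genes (S100a8, S100a9, Ly6g, Mpo, Elane, Lcn2 and Camp) had exonic tags, and 1 of 12 genes of microglia and macrophages, Csf1r, the CSF-1 receptor gene, with 24 tags. Summed, that list was at 0 to 5.12 per 10000 exonic tags in ipsilateral, 0 to 2.59 in contralateral and 0.560 to 1.64 in sham libraries, with all 10 ipsilateral and all 7 contralateral tags in replicate 1 of each group. Cx3cr1, P2ry12, Tmem119, Aif1, C1qa, C1qb, C1qc, Itgam, Ptprc and Trem2 were among those at 0. Of 6 endothelial genes 1 had tags, Flt1 with 8. The labelled cortex showed in its neurons and astrocytes, with 7 of 9 neuronal markers (5900 tags) and 5 of 6 astrocyte markers (3071 tags) covered. Of 6 oligodendrocyte markers 4 had tags (891), at 35.2 ± 14.2 per 10000 exonic tags in ipsilateral (SD, n = 5), 52.2 ± 14.5 in contralateral and 52.3 ± 7.60 in sham libraries (SD, n = 4 each); 3 were tested by edgeR and 0 called, with Mbp, a myelin protein gene, at -0.48 on the log2 scale in ipsilateral against sham libraries (SE 0.26, adjusted p = 0.580). The neuronal markers spread more widely in that comparison: 6 were tested and 0 called, with log2 fold changes from -0.84 to 1.22, 4 above 0 and 2 below. For astrocyte markers 3 were tested and 0 called, from -0.16 to 0.13. A marker at 0 in a peak list that starts from called peaks is not shown to be absent from the tissue.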

How the data were processed

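The deposited tables used were both of counts: whole tags per mature miRNA and whole tags per AGO peak in 13 libraries, not normalized by the authors. The build (mm10) and the aligner (Novoalign) are named in the submitters' processing notes, without a version; no source used here names a peak caller or says whether duplicate tags were collapsed, so intervals cover counting error only. The members and all gene lists were chosen with earlier results of these data known. Shares are tags per 10000 miRNA tags. edgeR 4.0.16 quasi-likelihood tests (two-sided, all 13 libraries in 1 fit, Benjamini-Hochberg adjusted p under 0.05 over all features tested) were run on miRNAs (TMM, filterByExpr), on seed families (library size, all 3'UTR peak tags; at least 10 site peaks) and on genes (exonic peaks summed, library size all exonic tags). DESeq2 1.42.0, other scalings, filters and left-out libraries were alternatives. Mean shares were compared by exact permutation tests. The scripts were tested on simulated data. Per the series' design text, each set of replicates is from its own day of surgery, so replicate numbers were taken to pair libraries; deviations from group means correlated at 0.128 on average in 11 same-numbered pairs and -0.031 in 45 others. The fits had no block. Exonic and 3'UTR peaks were those deposited with that class alone. Sequence under peaks, and the strand, came from GENCODE M21 transcripts (GRCm38); 1 peak without a position (44 tags) was left out. miRNAs named were the members, their other arms and relatives, the listed companions and the listed neuronal miRNAs. miR-26a-5p, miR-101a-3p and miR-451b were added after their values were seen. Site peaks named were the 3 with the most tags per seed or those in known targets, of which a choice is shown. A few listed genes enter the counts over lists but are not reported here singly.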

Additional observations from a re-analysis of the deposited data

Results flagged for a closer look

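In 57 groups of 4 or 5 libraries checked (shares of the 8 miRNAs, site shares of the 9 seeds and both hairpin peaks), 10 had a library far from the rest of its group; chance alone flags about 1 in 20 groups of evenly measured values, a rate that need not hold for counts this low at unequal depth. Of the 10, 4 were ipsilateral replicate 5, the shallowest library: miR-451a at 7.79 tags per 10000 miRNA tags (others 3.23 to 4.32), miR-21a-5p at 15.6 (others 2.69 to 5.78), the Mir451a peak at 2.65 tags per 10000 peak tags (others 0 to 0.467) and the Mir21a peak at 15.9 (others 0 to 0.287), from 3, 6, 1 and 6 tags. Contralateral replicate 5 stood high for miR-144-3p, at 9.57 per 10000 (others 5.34 to 5.95), and for miR-155-5p sites, at 1.03% of 3'UTR tags (others 0.658% to 0.708%). Sham replicate 5 stood high for miR-142a-3p, at 4.68 per 10000 (others 2.01 to 2.26), and sham replicate 3 low for miR-210-3p sites, at 0.172% (others 0.228% to 0.236%). The Mir21a peak had tags in contralateral replicate 1 alone of its group, at 0.152 per 10000, and in sham replicate 2 alone of its group, at 0.877, from 1 and 2 tags; a group with tags in a single library is flagged whatever their number.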

How the results depend on the processing

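No miRNA of the 8 and no seed family of the 9 was called under any setting: 0 calls in 464 fits of single miRNAs (lowest adjusted p 0.943) and 0 in 621 fits of families (lowest adjusted p 0.143). Signs changed under some setting in 13 of 21 miRNA results and 18 of 27 family results, among them miR-21a-5p in contralateral against sham libraries, at 0.49 with all libraries. Without the 3 libraries of replicate number 1, log2 fold changes became -0.064 (miR-223-3p), 0.080 (miR-144-3p) and -0.020 (miR-142a-3p) for ipsilateral against sham libraries, 0.052 (miR-142a-3p) for ipsilateral against contralateral, and -0.21 (miR-223-3p), 0.35 (miR-144-3p), -0.072 (miR-142a-3p), 0.034 (miR-155-5p) and -0.073 (miR-21a-5p) for contralateral against sham libraries. For ipsilateral against contralateral libraries miR-142a-3p was 0.16 with the replicate block, 0.00077 in DESeq2 and 0.0054 with total counts only, and miR-21a-5p was -0.0093 without a filter. Leaving out 1 library at a time gave, for ipsilateral against sham libraries, -0.50 to 0.080 (miR-144-3p) and -0.86 to -0.38 (miR-451a); for ipsilateral against contralateral, -0.083 to 0.31 (miR-223-3p), -0.55 to 0.047 (miR-451a), -0.24 to 0.13 (miR-142a-3p) and -0.27 to 0.48 (miR-21a-5p); for contralateral against sham libraries, -0.12 to 0.28 (miR-223-3p), -0.28 to 0.29 (miR-144-3p), -0.0069 to 0.22 (miR-142a-5p) and -0.26 to 0.053 (miR-155-5p). miR-451a in ipsilateral against sham libraries kept an unadjusted p under 0.05 in 18 of 22 fits (edgeR and DESeq2). These fits reuse the same counts, and those without a contralateral library keep both compared groups whole. The tally is therefore not independent support, and the same tally over all miRNAs is not given here. Its log2 fold change was -0.64 under the replicate block (edgeR unadjusted p = 0.0313) and -0.65 in DESeq2 (unadjusted p = 0.0623). The count of exact share tests under 0.05 was 0 in each comparison and 0 to 1 over left-out libraries in ipsilateral against sham, the 1 being miR-142a-3p without sham replicate 5.

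Counts of calls over all families and genes moved more, and the cause was not tested. The families tested include the seeds of the 9 miRNAs, and none of those seeds was among the families called. For families in ipsilateral against sham libraries, 1 was called, and 3 with the replicate block, 0 in DESeq2, 0 with TMM, 0 with all peak tags as library size, 4 without the 3 libraries of replicate number 1 and 0 to 3 leaving out 1 library; in ipsilateral against contralateral, 0 were called, and 3 with the replicate block, 1 with peaks of mixed class included (a setting added after seeing the data) and 0 to 2 leaving out 1 library. For genes in ipsilateral against sham libraries, 1 was called, and 5 in DESeq2, 2 with TMM, 3 without a filter, 4 without replicate number 1 and 0 to 9 leaving out 1 library; in ipsilateral against contralateral, 0 were called, and 3 with the replicate block, 6 in DESeq2, 7 without a filter, 6 without replicate number 1 and 0 to 10 leaving out 1 library. The replicate block changed no call of a member. Library medians of 1 to 24 tags limit what could be called among the miRNAs.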
